A study of Mus musculus with 13 samples.

Results

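The comparison described here is that of thymic iNKT2 cells at 25 weeks with those at 6 weeks, over the 10743 of 24421 genes in the deposited table that reached a normalized count of 10 in at least 2 of its 4 libraries. The aged side was the library pair N0809 and N0812, of the gate that the study calls iNKT2p, and the young side was the pair N0803 and N0806. A normalized count is a count of reads divided by the size factor of its library. The members just inside and just outside the minimum had a second highest value of 10.4 (Stx11) and 9.94 (Klrk1). Of the members, 165 passed through the aged libraries alone and 95 through the young ones alone, so that these had to differ between the ages. All mice were female wild type BALB/c. Total RNA of 6 groups (iNKT1, iNKT2 and iNKT17 cells at 6 and at 25 weeks) was sequenced in 2 libraries each, and every library held cells pooled from 3 young or 7 aged mice. The gates were B220-negative, CD3-positive and CD1d tetramer-positive, with CD122+ cells taken as iNKT1, CD122- CD4+ cells as iNKT2 (iNKT2p) and CD122- CD4- cells as iNKT17. The young iNKT2 libraries came from over 4 times as many sorted cells as the aged iNKT2p libraries. Cells came from independent sorts of pooled thymi, and the labels do not say which libraries share a sort. The p-values measure the spread between the 2 libraries of a group. Unless stated otherwise, this spread was pooled over all 6 groups and not taken from the iNKT2 libraries alone.

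Invariant NKT cells carry a semi-invariant T cell receptor that recognises glycolipids on CD1d, and arise in the thymus from CD4+ CD8+ double-positive thymocytes. They divide into effector subsets resembling helper T cells: iNKT1 cells with TBET and interferon gamma, iNKT2 cells with high PLZF, GATA3 and interleukin 4, and iNKT17 cells with the receptors of IL23 and IL1. The CD122- CD4+ gate is defined by surface proteins and not by these transcription factors, and the study states that at 25 weeks it held some iNKT17 cells. By staining, the study also found PLZF-intermediate cells with the transcription factor RORγt in the aged gate. It further found PLZF-low cells there, with less TBET than iNKT1 cells. Each rise in the gate was therefore set against the values of the same gene in aged iNKT17 libraries N0810 and N0813.

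The 4 libraries held between 5946582 and 9107274 reads in genes, so that 1 read was worth 0.710 to 1.08 normalized counts. The gate and the identity of the cells were first checked. Cd4 was at 2373 and 3415 in young iNKT2 and at 4004 and 3869 in aged iNKT2p libraries, and Il2rb, which encodes CD122, was at 1036 and 1069 against 739.6 and 729. Aged iNKT1 libraries had 9387 and 9709 for Il2rb, and aged iNKT17 libraries 18.2 and 67.96 for Cd4, so that the gate held more Cd4 and less Il2rb than these subsets. Genes of B and erythroid cells were scarce, whereas 22 of 25 genes of double-positive thymocytes and precursors were members and are described below. The 7 genes of B cells and the 9 of erythroid cells in the table gave no member, and Itgax and Hbb-b1 had 0 reads in all 4 libraries. Of 19 myeloid genes 4 were members and 0 were called (limma, edgeR and DESeq2, 0 at an unadjusted p under 0.05). Young library N0806 stood apart in the epithelial keratin genes, with Krt8 at 41.7 and Krt18 at 35.1 against 0 in N0803, and it had 5.69 for the Y-linked Eif2s3y. Krt8 was also at 54.1 in the young iNKT17 library N0807 and at 424 in the young iNKT1 library N0805. Without N0806 605 members rose and 186 fell in limma, and without N0805, N0806 and N0807 together 1480 and 599, against 242 and 92 with all libraries.

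Expression changed in both directions with age. In limma, on log2(normalized count + 1) with all 6 groups in the fit and at a Benjamini-Hochberg adjusted p under 0.05, 242 members were higher in aged iNKT2p cells and 92 were lower. Over all 11530 genes tested, 2.13% were called higher and 0.807% lower, so that the shares among members were near these. At an unadjusted p under 0.05, 1404 of the 10743 members were higher and 967 lower, which is the background of such counts for single lists. The rises were the larger changes, with a median log2 fold change of 1.53 (also with the genes at 0 in a group set to their bound) against −1.14 for the falls, and the median over all members was 0.01. All called members kept the aged libraries on one side of the young ones. This was so for 29.7% of all members with higher and 26.2% with lower values. Of the rises 39 and of the falls 3 were members through 1 age alone. In the scatter of group means the rises reach down to genes with 0 reads in young cells.

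**Figure D1:**
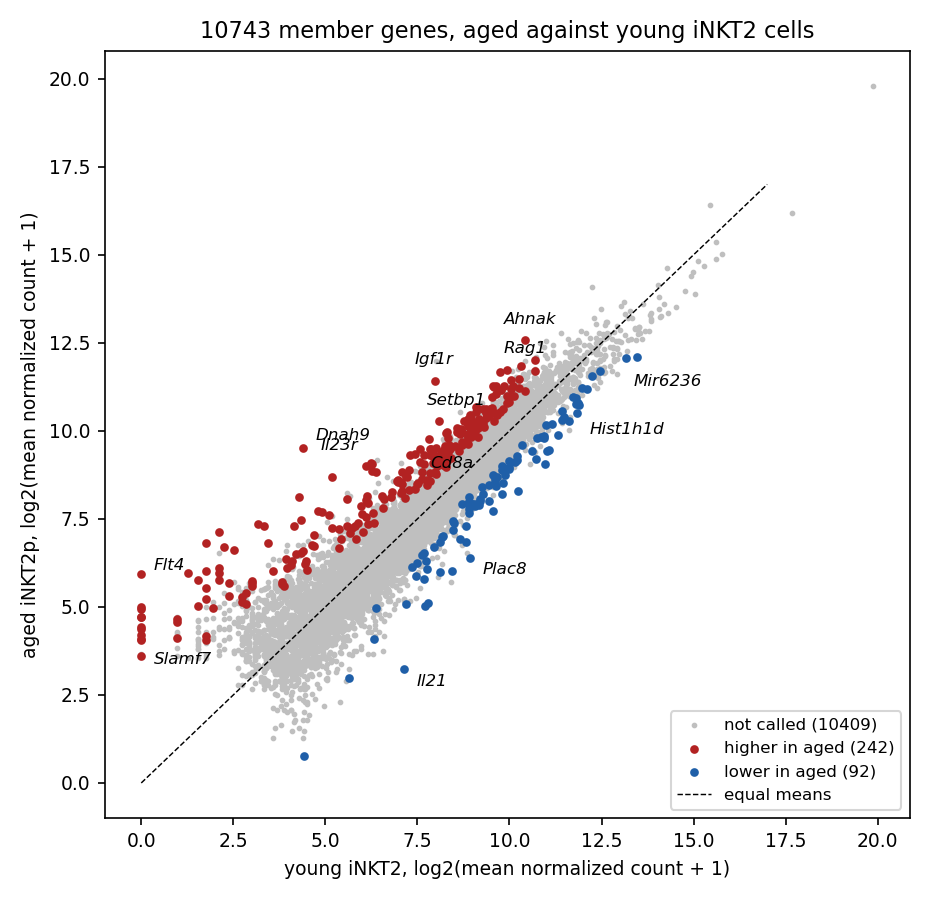
Mean level of each of the 10743 members in 2 young iNKT2 libraries (x axis) and 2 aged iNKT2p libraries (y axis), both as log2(mean normalized count + 1), with the dashed line at equal means. The 242 called rises (red) include genes at 0 in young cells such as Flt4, and the 92 called falls (blue) include Il21 at low and Mir6236 at high levels.

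The counts rested on few libraries. Without aged library N0812, 13 members rose and 0 fell (limma), and without N0809 27 and 13. Without young library N0803 it was 44 and 3, and without N0806 605 and 186. Libraries of the other subsets also moved the counts through the shared spread, with 926 and 475 without N0802, 929 and 468 without N0805, and 119 to 135 rises and 37 to 43 falls without any other. In a limma fit on the 4 iNKT2 libraries alone, 0 members were called in either direction (1262 higher and 888 lower at an unadjusted p under 0.05), while DESeq2 on these libraries called 508 and 260 and edgeR on all 12 called 281 and 122. Of the 242 rises, 11 were called whichever of the 4 libraries was left out, namely Flt4, Cpe, Pde5a, Ptgdr2, Dennd5a, Il23r, Dock5, Gimap3, Arhgap26, Tpr and Aplp2 (excess over the young level between 6.11 and 209% of that in aged iNKT17 cells). Of the 92 falls, 0 kept the call in all these fits. For many genes named below, the number of the 29 alternative settings that kept the call is given. Most of these settings keep all 4 iNKT2 libraries, so a high number does not show that a call holds without 1 of them. Called genes other than the 11 above, such as Dnah9, Setbp1 and Il21 at 25 of 29, lost it without at least 1 of these libraries. Where the number of settings is not given beside the gene, it was 12 for Rps16, 13 for Mir6236 and Rps27l, 14 for Atp5b and Rpl13, and 15 for Ahnak, Gdi2, Rps15a and Snord34. It was 16 for Snord82, Snord49b, Il10ra, Cd8b1 and Itga1, 17 for Ccdc88a, Crocc, Sdc1, Rps25 and Ifngr1, and 19 for Stmn1 and Hist2h2bb.

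Most of the largest rises were of genes of the iNKT17 program, apart from Dnah9 and Ccdc88a, which are described below. Flt4, the receptor VEGFR3 of lymphatic endothelium, had 0 reads in both young libraries and was at 66.0 and 53.9 in the aged ones, against 1008 and 954 in aged iNKT17 libraries. It was at least 21.1-fold higher than the floor of 3 reads per library (adjusted p = 0.00100, called in 26 of 29 settings). Serpinb1a, a protease inhibitor, was at 4.73 and 0 in young and at 86.6 and 135 in aged iNKT2p libraries, with 869 and 975 in aged iNKT17 libraries. Its log2 fold change was 5.51 (SE 0.72, adjusted p = 0.00472). The aged values of both genes lay far above the young and far below the iNKT17 values.

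Genes of signalling and ion transport behaved in the same way. Pde5a, a phosphodiesterase that degrades cyclic GMP, rose from 5.67 and 10.4 to 169.6 and 158 (log2 fold change 4.24, SE 0.44, adjusted p = 0.00146), against 1244 and 1543 in aged iNKT17 libraries. Kcnk1, a potassium channel, rose from 1.892 and 1.896 to 49.7 and 56.0 and Dkk3, a secreted protein of the Dickkopf family, from 2.84 and 6.64 to 84.5 and 109.9. Kcna1, a further potassium channel, was at 0 and 2.84 in young cells and differed between the aged libraries, at 105 in N0809 and 17.2 in N0812. Stab2, a scavenger receptor, rose from 6.62 and 0 to 51.1 and 84.0, and Tmem176a from 15.1 and 2.84 to 139.8 and 175. Mtcl1, a microtubule crosslinking factor, reached 86.6 and 192 and was called in 14 of 29 settings, and Lrrn2, a neuronal leucine-rich repeat gene, reached 107 and 100.2. In none of these genes did the young and aged libraries overlap, which was a condition for naming them. Kcnk1, Dkk3, Kcna1, Stab2, Mtcl1 and Lrrn2 were members through the aged libraries alone and could only count as rises. The same holds for Flt4 and Serpinb1a.

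The defining receptors of iNKT17 cells rose as well. Il23r, the receptor of IL23, was at 76.6 and 72.0 in young and at 480.5 and 607 in aged iNKT2p libraries, against 4889 and 5159 in aged iNKT17 libraries (log2 fold change 2.84, SE 0.27, adjusted p = 0.00100). Sdc1, syndecan-1, and Il1r1, the receptor of IL1, rose from 74.7 and 77.7 to 532 and 539.7 and from 76.6 and 87.2 to 367 and 534. In aged iNKT1 libraries Il23r and Il1r1 had 0 reads. Of 15 members among 19 iNKT17 markers 7 rose and 0 fell in limma (11 and 1 at an unadjusted p under 0.05, and 10 and 0 in edgeR and in DESeq2), with a median log2 fold change of 2.57 against 0.01 over all members. The number was 1 without N0812, 3 without N0809 and 4 without N0803. Il17a and Il17f, the cytokines that give the subset its name, had 0 reads in all 4 libraries.

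The fraction of the iNKT17 level that the aged gate reached was similar for many of these genes. It was measured on 116 genes specific to young iNKT17 cells, as the excess of aged iNKT2p over mean young iNKT2 values in percent of that of aged iNKT17 cells. The median was 8.57% in N0809 and 11.2% in N0812, with interquartile ranges of 5.83 to 12.9% and 5.43 to 17.1%, a mean of 9.88% ± 1.85 (SD, n = 2). Flt4 was at 6.11%, Kcnk1 at 6.91%, Il23r at 9.48%, Sdc1 at 9.76%, Pde5a at 11.3% and Il2ra at 14.1%. Igf1r, the receptor of insulin-like growth factor 1, lay above this range. It rose from 159.8 and 342 to 2440.1 and 3025, which was 39.4% of the aged iNKT17 excess (6483 and 6629; adjusted p = 0.0409, called in 14 of 29 settings). With the share of 8.57% and 11.2% of the aged iNKT17 values taken out of the aged libraries, 0 of the 15 iNKT17 markers were called higher and 1 lower (median 0.37), and of all members 131 rose and 68 fell. For Il23r the log2 fold change was then −0.50 and for Sdc1 −1.38. A fraction of cells with a full level and a low level in all cells cannot be told apart in bulk RNA alone. The study's own evidence on this is its flow cytometry, which found some iNKT17 cells in the aged sort.

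Of the 242 rises, 143 had a mean in aged iNKT17 cells at or above that of aged iNKT2p cells and 99 a mean below it. Of the 143, 50 reached at most 2 times the mean share of the iNKT17 excess, and 93 reached more. Of the 99, 69 had both aged iNKT17 libraries below both aged iNKT2p libraries, and 45 had both aged iNKT1 libraries below them as well. With the share taken out, 75 of the 99 and 56 of the 143 rises were called. In the plot of rises against the iNKT17 level, the 99 lie above the line of equal means.

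**Figure D2:**
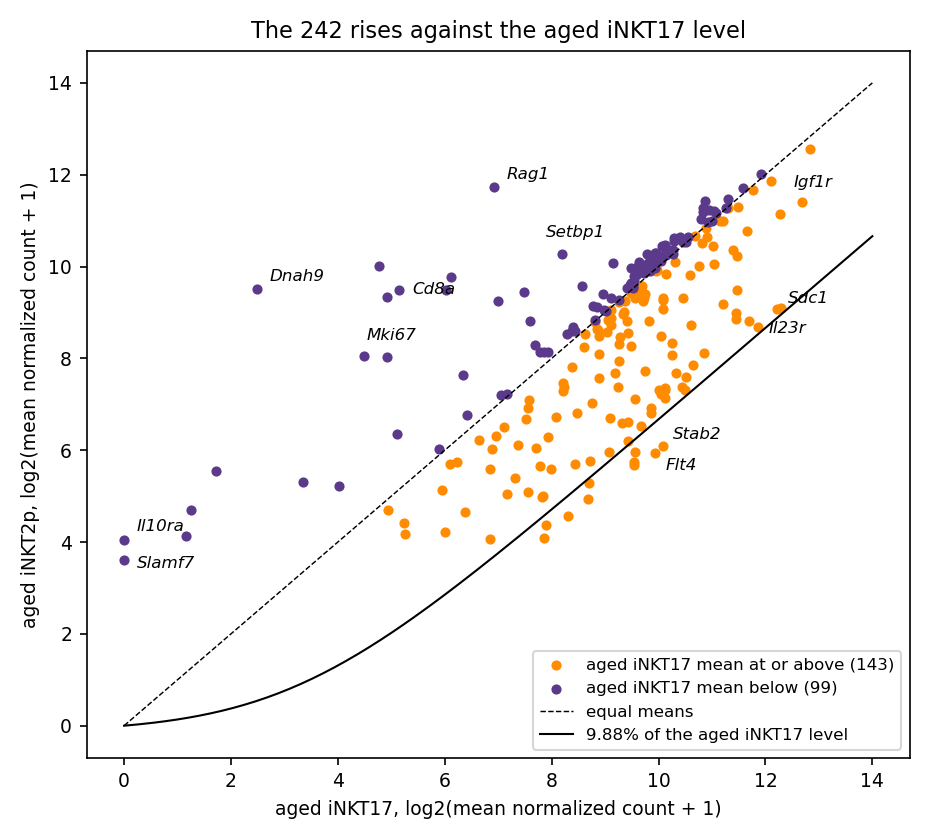
The 242 called rises, with the mean level in 2 aged iNKT17 libraries on the x axis and in 2 aged iNKT2p libraries on the y axis, both as log2(mean normalized count + 1), orange where the iNKT17 mean was at or above (143) and purple where it was below (99). Genes such as Flt4, Il23r and Sdc1 lie near the solid line, which marks 9.88% of the iNKT17 level, whereas Dnah9, Rag1 and Setbp1 lie far above the dashed line of equal means.

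Of the 99 rises with an aged iNKT17 mean below that of aged iNKT2p cells, Dnah9 had the largest log2 fold change. It encodes an axonemal dynein heavy chain, known from motile cilia, and lies on chromosome 11 of mm10 at 65831324 to 66168467 on the minus strand. It was at 21.8 and 18.0 in young iNKT2 libraries and at 751 and 699 in aged iNKT2p libraries, whereas the other 8 libraries of the fit lay between 0 and 6.80. The log2 fold change was 5.12 (SE 0.79, adjusted p = 0.0101, called in 25 of 29 settings). The aged values came from 1058 and 649 reads. Of the neighbouring genes, Map2k4, a kinase of the JNK pathway, was at 609 and 540.3 in young and 561 and 626 in aged cells, Zkscan6 at 299.8 and 228 against 162 and 203, and Shisa6 had 0 reads, so that none of these 3 genes was called.

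Setbp1, a nuclear protein that binds SET, rose from 183 and 357 to 1148 and 1325 (log2 fold change 2.26, SE 0.34, adjusted p = 0.00872, called in 25 of 29 settings). In aged iNKT17 and iNKT1 libraries it was at 263, 322, 97.2 and 97.8, all below the aged iNKT2p values. Among the other rises with an aged iNKT17 mean below that of aged iNKT2p cells, B3galt5, a galactosyltransferase of glycolipid synthesis, rose from 10.4 and 18.0 to 65.3 and 97.0, and Ccdc88a, an actin-binding protein, from 0.946 and 3.79 to 63.9 and 63.6. These values overlapped with those of other aged subsets, as B3galt5 was at 69.6 and 90.1 in iNKT1 and Ccdc88a at 31.5 and 85.4 in iNKT17 libraries. Ccdc88a was a member through the aged libraries alone and could only count as a rise. The centrosome and cilium base genes Cep164 (52.0 and 85.3 to 257 and 304) and Crocc, which encodes rootletin (11.3 and 36.0 to 102 and 113), rose together with Fam160a2 (23.6 and 46.4 to 144 and 154). For the last 3 genes aged iNKT17 cells were at 211 and 250.5, 73.0 and 95.1, and 129 and 155, and the rises amounted to 131, 139 and 107% of the iNKT17 excess. Fam160a2 also rose with age in iNKT17 cells (3.32, SE 0.38, adjusted p = 0.00136).

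Genes of thymocyte precursors formed a further group among the rises. Rag1, the recombinase that assembles T cell receptor genes, was at 873 and 1097 in young iNKT2 and at 3371 and 3424 in aged iNKT2p libraries, against 64.7 and 176 in aged iNKT17 and 782 and 792 in aged iNKT1 libraries. The log2 fold change was 1.79 (SE 0.38, adjusted p = 0.0296, called in 19 of 29 settings). Dntt, the terminal transferase that adds bases at the junctions, rose from 171 and 174 to 696 and 604, and Ctsl, a lysosomal protease, from 241 and 228 to 689 and 746. The coreceptor genes Cd8a and Cd8b1 rose from 161 and 217 to 732 and 702 and from 184 and 264 to 843 and 915. Themis, a regulator of thymocyte selection, rose from 541 and 452 to 889 and 1182 (1.05, SE 0.25, adjusted p = 0.0451, called in 12 of 29 settings). In each of them the aged iNKT2p libraries lay above both young libraries and above all aged iNKT17 and iNKT1 libraries.

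Of 22 members among 25 genes of double-positive thymocytes and precursors, 7 rose and 0 fell in limma and in edgeR (14 and 0 at an unadjusted p under 0.05, 12 and 0 in DESeq2). The median log2 fold change was 1.55, against 0.01 over all members, and 20 of the 22 had positive values. Without N0803, N0809 or N0812 the number was 0, and without N0806 it was 9. Rag2 was at 30.3 and 45.5 against 108 and 111 (1.53, adjusted p = 0.0905). Not all precursor genes were higher: Sox4 was at 494 and 657 against 574 and 632, Myb at 1693 and 1659.9 against 1454 and 1534, and Ptcra, the pre-T cell receptor chain of earlier thymocytes, was at most at 3.78 in the 4 libraries. Taking out the iNKT17 share left 6 of the 22 called, with a median of 1.63.

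The same genes had other age changes in the other subsets. In iNKT17 cells the log2 fold change with age of Rag1 was −2.71 and in iNKT1 cells −2.95, where young libraries had 5903 and 6309, so that at 6 weeks iNKT1 and at 25 weeks iNKT2p libraries held the most. Of all genes tested, 0.494% were called higher and 1.06% lower with age in iNKT17 cells and 2.18% and 3.14% in iNKT1 cells, against 36 and 58 of the 242 iNKT2 rises called higher there. The difference between the age changes of iNKT2 and iNKT17 cells was 4.50 (SE 0.53, adjusted p = 0.00626) for Rag1. It was 4.59 for Dntt, 4.26 for Cd8a, 3.22 for Ctsl, 3.38 for Themis and 6.40 for Rag2 (adjusted p from 0.00398 to 0.00626). Of all tested genes 0.121% had a higher age change in iNKT2 than in iNKT17 cells, and all 14 of them were members. None had a lower one in limma (138 members at an unadjusted p under 0.05, 1 in edgeR and 2 in DESeq2). Against iNKT1 cells it was 1.27% and 0.0434%, with 142 members above and 5 below. Without N0812 the count against iNKT17 cells was 0, without N0809 it was 2, without N0804 or N0807 it was 7, and without N0802 or N0805 it was 53.

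**Figure D3:**
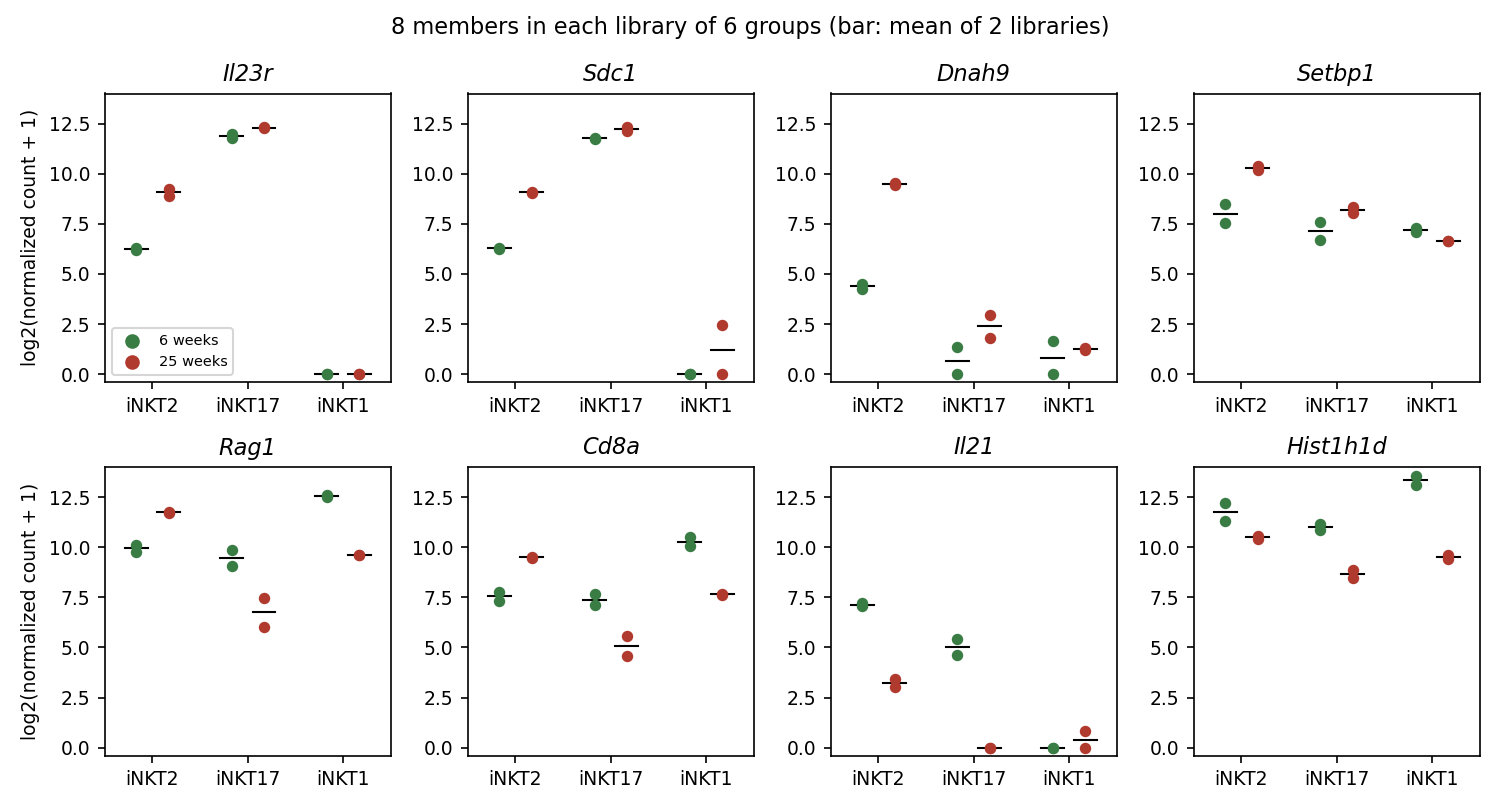
Levels of 8 members in the 12 libraries as log2(normalized count + 1), with 1 point per library, green for 6 and red for 25 weeks, and a bar at the mean of 2 libraries. Il23r and Sdc1 are highest in iNKT17 cells, Dnah9 and Setbp1 in aged iNKT2p cells, and Rag1 and Cd8a go up in iNKT2 but down in iNKT17 and iNKT1 cells.

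Markers of iNKT1 cells rose in few cases and at low levels. Slamf7, a receptor of the SLAM family, had 0 reads in young cells and 15 and 11 reads, that is 10.6 and 11.9 normalized counts, in aged cells, at least 3.96-fold over the floor of 3 reads per library (adjusted p = 0.0113). Aged iNKT1 libraries had 1568 and 1672, so that the aged gate reached 0.694% of their excess. Itga1, the integrin alpha 1 of tissue-resident cells, was at 1.89 and 0 against 13.5 and 19.4, or 0.515% of the iNKT1 excess. Stat4, the signal transducer of IL12, rose from 8.51 and 13.3 to 56.8 and 72.2 (2.48, SE 0.30, adjusted p = 0.00311, called in 27 of 29 settings), with 100.4 and 135 in aged iNKT17 and 1599 and 1521 in aged iNKT1 libraries. Klrb1c, the NK1.1 receptor gene, rose from 15.1 and 12.3 to 41.2 and 52.8. With 2 times the iNKT17 share taken out, the log2 fold change of Klrb1c was negative. Of 16 members among 30 markers these 4 rose and 0 fell in limma (4 and 4 at an unadjusted p under 0.05, 4 and 1 in edgeR and in DESeq2), and the median of the list was −0.51. Slamf7 and Itga1 were members through the aged libraries alone and could only count as rises. Without N0812 0 of them were called, and without N0803 or N0809 1 was. With the iNKT17 share taken out, 3 members of the list were called higher. Tbx21, which encodes TBET, was at 80.4 and 99.5 against 104 and 37.7, and Klra3, an inhibitory Ly49 receptor, at 46.3 and 75.8 against 46.8 and 24.8. Ifng, the interferon gamma gene, was too low to be a member. It was lower in aged cells, at 7.57 and 7.58 against 0 and 0, from 8 and 8 reads (limma, −3.10, SE 0.62, adjusted p = 0.0248).

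Of 30 members among 34 cytokine receptors 7 rose, 0 fell and 26 had positive values. Il2ra, the alpha chain of the IL2 receptor, rose from 14.2 and 22.8 to 281 and 275 (3.88, SE 0.48, adjusted p = 0.00341), with 1842 and 1871 in aged iNKT17 cells. Il4ra, the receptor chain for IL4 and IL13, rose from 109 and 135 to 438 and 319 (1.62, SE 0.23, adjusted p = 0.00661, called in 26 of 29 settings). It reached 64.2% of the iNKT17 and 22.6% of the iNKT1 excess. Ifngr1, the receptor of interferon gamma, rose from 412 and 258 to 675 and 752, and Il10ra, the receptor of IL10, from 2.84 and 1.896 to 12.8 and 18.3. Il6ra, a receptor of IL6 that marks iNKT2 cells, was at 376 and 615 against 1427 and 1505, with 91.2 and 81.6 in aged iNKT17 libraries, and did not pass (1.60, SE 0.53, adjusted p = 0.113). The 7 rises include Il1r1 and Il23r, which are also iNKT17 markers, Il18rap, and Il10ra, a member through the aged libraries alone that could only count as a rise. The counts are those of limma (16 and 2 at an unadjusted p under 0.05, 10 and 0 in edgeR, 12 and 0 in DESeq2), with a median of 0.77. The number was 2 without N0809 or N0812, 4 without N0803 or N0806, and 3 with the iNKT17 share taken out.

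Among the other receptors, Plxnd1, a semaphorin receptor of thymocyte migration, rose from 23.6 and 112 to 566 and 455. Of 29 homing and adhesion receptors it and Itga1 rose and 0 fell in limma (8 and 3 at an unadjusted p under 0.05, 2 and 1 in edgeR, 6 and 2 in DESeq2), with a median of 0.26. Pik3ap1, a PI3 kinase adaptor low in young iNKT2 cells, rose from 1.89 and 4.74 to 57.5 and 64.6, with 752 and 749 in aged iNKT17 and 879 and 871 in aged iNKT1 cells. Pik3ap1 was a member through the aged libraries alone and could only count as a rise. Of the abundant rises, Ahnak, a giant scaffold protein, went from 654 and 2067 to 6117 and 6034 and Macf1, a cytoskeletal crosslinker, from 1237 and 2090.2 to 4489.8 and 3849. Both also differed between the young libraries, and N0806 was the one nearer to the aged values. Ahnak was at 6626 and 7938 in aged iNKT17 and at 27561 and 31379 in aged iNKT1 libraries. Its log2 fold change with age was 2.38 in iNKT2, 2.47 in iNKT17 and 2.52 in iNKT1 cells, and limma called each.

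Of the 12 iNKT2 markers, 0 rose and 1 fell, and 6 had positive and 6 negative values. Zbtb16, which encodes PLZF, was at 3698 and 5484 in young and 5882 and 5310.1 in aged cells, where the groups overlapped (0.31, SE 0.24, adjusted p = 0.499). Gata3 was at 1086 and 1268 against 1180.3 and 1287, and Il17rb, the IL25 receptor, at 368 and 359 against 345 and 438. Nrp2, neuropilin 2, was at 578 and 622 against 899 and 1171, and Ccr7, a homing receptor, at 654 and 611 against 461 and 444. The costimulatory receptor gene Slamf6 was at 1016 and 999 against 648 and 689 (−0.59, adjusted p = 0.104) and Izumo1r, the folate receptor 4, at 2573 and 2071 against 1558 and 1538 (−0.58, adjusted p = 0.167). The type 2 cytokine gene Il4 was at 263 and 307 against 116 and 136 (−1.17, SE 0.56, adjusted p = 0.253), and Il13 at 71.9 and 89.1 against 50.4 and 68.9. The 12 markers were all members, and the counts are those of limma (1 and 3 at an unadjusted p under 0.05, 1 and 1 in edgeR, 1 and 2 in DESeq2), with a median of −0.18.

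The marker that fell was Plac8, a small cysteine-rich protein, at 648 and 318 in young and 68.8 and 98.0 in aged cells. It fell by 2.45 on the log2 scale (SE 0.58, adjusted p = 0.0455, called in 12 of 29 settings), and aged iNKT17 and iNKT1 libraries had 2.91 to 16.7. The deepest fall was that of Il21, a cytokine of follicular helper T cells that acts on B cells. It lies on chromosome 3 of mm10 at 37222759 to 37232565 on the minus strand. Il21 was at 131 and 146 in young iNKT2 and at 7.10 and 9.70 in aged iNKT2p libraries, from 139 and 154 against 10 and 9 reads. It fell by 3.91 on the log2 scale (SE 0.72, adjusted p = 0.0182, called in 25 of 29 settings). Young iNKT17 libraries had 23.8 and 41.2 and aged ones 0 and 0. Of 13 members among 27 cytokine and chemokine genes 0 rose and Il21 alone fell in limma and in edgeR (1 and 2 at an unadjusted p under 0.05, 1 and 1 in DESeq2), and the median was −0.13.

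Other single falls were spread over several functions. Igfbp4, the binding protein that holds IGF1 away from its receptor, fell from 2072 and 1279.7 to 458 and 712 (−1.51, SE 0.31, adjusted p = 0.0265, called in 20 of 29 settings), while its level in aged iNKT17 libraries was 25.7 and 34.0. Its fall in iNKT17 cells was the deeper one, with a difference of 3.05 (SE 0.44, adjusted p = 0.0202). Myo6, an unconventional myosin, fell from 389 and 168 to 66.7 and 58.2, Dstn, the actin depolymerising factor destrin, from 199 and 209 to 41.9 and 67.9, and Tmsb10, an actin-sequestering thymosin, from 4537 and 4296 to 2300.3 and 2322. Gdi2, which recycles Rab GTPases, fell from 6496 and 4862 to 3368 and 3324. Fignl1, a factor of homologous recombination, fell from 79.4 and 77.7 to 22.002 and 9.70, called in 12 of 29 settings.

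Of 54 members among the replication-dependent histone genes 10 fell in aged iNKT2p cells. Their mRNAs end in a stem-loop in place of a poly(A) tail and are made in S phase, and the library kit, which primes total RNA, takes them up. All 54 members, of 68 genes in the list, had negative log2 fold changes, with a median of −1.16 against 0.01 over all members, and 10 were called lower and 0 higher in limma (37 and 0 at an unadjusted p under 0.05, 14 and 0 in edgeR, 29 and 0 in DESeq2). The summed level was 44258 and 26506 in young libraries N0803 and N0806 and 16347 and 15277 in the aged ones. In normalized counts, though not as a fold for N0812, the young libraries thus differed from each other by more than N0806 did from the aged ones. The number called was 1 without N0803, 15 without N0806, 3 without N0809 and 0 without N0812. The median change was also negative in iNKT17 (−2.09) and iNKT1 cells (−3.61).

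The linker histone genes Hist1h1d and Hist1h1e lie in the histone cluster of chromosome 13 and show the promoter elements of the family. The 150 bases before their RefSeq start (genes H1f3 and H1f4, build GRCm38.p6, chr13:23554882-23555031 on the plus and chr13:23622559-23622708 on the minus strand) are printed to show these elements, with the H1 box (AAACACA), the CCAAT box and the TATAAA element in capitals.
Hist1h1d: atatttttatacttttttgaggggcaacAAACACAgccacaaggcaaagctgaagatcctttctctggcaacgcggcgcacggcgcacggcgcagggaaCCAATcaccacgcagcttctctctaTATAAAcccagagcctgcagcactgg
Hist1h1e: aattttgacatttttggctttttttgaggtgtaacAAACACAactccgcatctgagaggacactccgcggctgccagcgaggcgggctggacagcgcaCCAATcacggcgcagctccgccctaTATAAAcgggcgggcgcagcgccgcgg

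In both promoters the 3 elements stand in the same order and at nearly the same distance from the start, the H1 box 122 and 115, the CCAAT box 51 and 52 and the TATAAA element 26 and 27 bases before it. Searched on both strands in windows of 250 bases before to 50 after the start, AAACACA was in 4 of the 5 H1 histone members, 2 of 45 core histone promoters and 7.18% of all 32851 RefSeq promoters. CCAAT was in 84.0% of the 50 promoters of histone members and 37.4% of all, TATAAA in 60.0% and 13.6%, and TTTGAA, the core of the CHR element, in 46.0% and 17.9%. The E2F sequences TTTCGCGC and TTTGGCGC were in 16.0% and 0.813%. Matches that overlap in part, as TATAAA and AAACACA can, were each counted. Of the 54 histone members 49 were matched to a RefSeq gene. Such matches describe the sequence only. Over the promoters of members that fell, CCAAT was in 39.8% and TTTGAA in 10.8%, which is near the share of all promoters for the former and below it for the latter.

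Hist1h1d was at 4752 and 2524 in young iNKT2 and at 1513 and 1380.0 in aged iNKT2p libraries, and fell by 1.26 on the log2 scale (SE 0.28, adjusted p = 0.0347, called in 15 of 29 settings). In aged iNKT17 and iNKT1 libraries it was between 350.1 and 776. Hist1h1e, at 3193 and 2334 against 1334 and 1206, fell by 1.11 (SE 0.18, adjusted p = 0.0131, called in 24 of 29 settings). Among core histones, Hist1h3e fell from 527 and 375 to 121 and 107 (−1.96, SE 0.32, adjusted p = 0.0123), Hist1h4h from 1014 and 755 to 324 and 266 (−1.57, SE 0.21, adjusted p = 0.00516) and Hist4h4 from 2495 and 1646 to 763 and 601. Hist1h4d and Hist2h2bb fell by 1.42 and 1.28. Genes of the H4 family are close copies. The study's counting left out reads of low mapping quality, so that reads that map to several copies may be lost and these levels are uncertain. Of 8 replication-independent histone members, H2afx fell, from 693 and 524 to 388 and 292 (−0.84, adjusted p = 0.0491, called in 11 of 29 settings), and 0 rose in limma and in edgeR (5 lower and 0 higher at an unadjusted p under 0.05, 2 and 0 in DESeq2), with a median of −0.62.

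Of the genes of the cell cycle few were called. Mki67, the proliferation marker Ki-67, rose from 62.4 and 73.0 to 294 and 228 (1.92, SE 0.35, adjusted p = 0.0182, called in 25 of 29 settings), above the 25.7 to 87.5 of the aged iNKT17 and iNKT1 libraries. Stmn1, a microtubule-destabilising protein of dividing cells, fell from 496 and 451 to 220.0 and 187 (−1.22, SE 0.25, adjusted p = 0.0265). Top2a, the topoisomerase of S and G2 phase, was at 362 and 470.2 against 545 and 507 (adjusted p = 0.764). These 3 proliferation genes thus went in different directions. Of 46 members for G2 phase and mitosis 1 rose and 1 fell (2 and 4 at an unadjusted p under 0.05), with a median of −0.13 and 28 negative values. Of 40 for S phase and DNA replication 0 rose and 2 fell in limma and in edgeR (1 and 8 at an unadjusted p under 0.05, 0 and 5 in DESeq2), with a median of −0.47. Of these 40, 37 had negative values, and the aged libraries lay below both young ones in 23 and above both in 2. The falls were the helicase subunit Mcm5 (939 and 848 to 461 and 480.5, called in 25 of 29 settings) and the dUTPase gene Dut (689 and 478 to 342 and 172, called in 12 of 29 settings).

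Of 74 members among 81 ribosomal protein genes 73 had negative values, with a median log2 fold change of −0.81, and 8 fell and 0 rose in limma (61 and 0 at an unadjusted p under 0.05, 14 and 0 in edgeR, 52 and 0 in DESeq2). Without N0806 26 fell, without N0803 1, and without N0809 or N0812 0. Their summed level was 722758 and 543978 in young and 400680 and 372283 in aged libraries. Rps15a, of the small subunit, fell from 10489 and 7711 to 4351 and 4250.0 (−1.06, SE 0.24, adjusted p = 0.0364), and Rpl28, of the large one, from 3427 and 3722 to 1785 and 1719 (−1.03, SE 0.16, adjusted p = 0.0104, called in 26 of 29 settings). Rps25, Rps16, Rpl10a, Rpl13 and Rps27l, which encodes an RPS27-like protein, fell by 0.78 to 1.66. Genes of this family have many processed copies in the genome, so that their levels are uncertain for the same reason. The initiation factors Eif5a (4067 and 3363 to 1843 and 1667, adjusted p = 0.00608, called in 27 of 29 settings) and Eif3h (3862 and 3328 to 1996 and 1892) fell likewise. Of 80 members for subunits of the respiratory chain and ATP synthase, a family chosen after its values were seen, 10 fell and 0 rose in limma (48 and 0 at an unadjusted p under 0.05, 14 and 0 in edgeR, 27 and 0 in DESeq2), and the median was −0.70. The number was 19 without N0806, 1 without N0809 and 0 without N0803 or N0812. Atp5b, the catalytic subunit of ATP synthase, was at 5344 and 4429.8 against 3194 and 2816.

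Small nucleolar and Cajal body RNAs, which guide the modification of ribosomal and spliceosomal RNA, were a further group that was picked out after its values were seen. Of 68 members 66 had negative values, with a median of −1.49, and 6 fell and 0 rose in limma and in edgeR (34 and 0 at an unadjusted p under 0.05, 22 and 0 in DESeq2). The number was 3 without N0806 and 0 without any other iNKT2 library. Snora52 fell from 187 and 228 to 26.3 and 36.6 (−2.70, SE 0.53, adjusted p = 0.0234), Snord34 from 177 and 264 to 32.6 and 34.5 and Snord82 from 314 and 373 to 54.7 and 74.3. Snord49b, Scarna13 and Scarna10 fell by 2.09, 1.97 and 1.84. In iNKT17 cells the median change of the group was −0.16 and in iNKT1 cells it was 0.93. The RNA annotated as Mir6236, on chromosome 9 at 110281287 to 110281409, fell from 11277 and 11423 to 4471 and 4379. Most of these RNAs lie in introns of host genes, and counting was by strand.

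**Figure D4:**
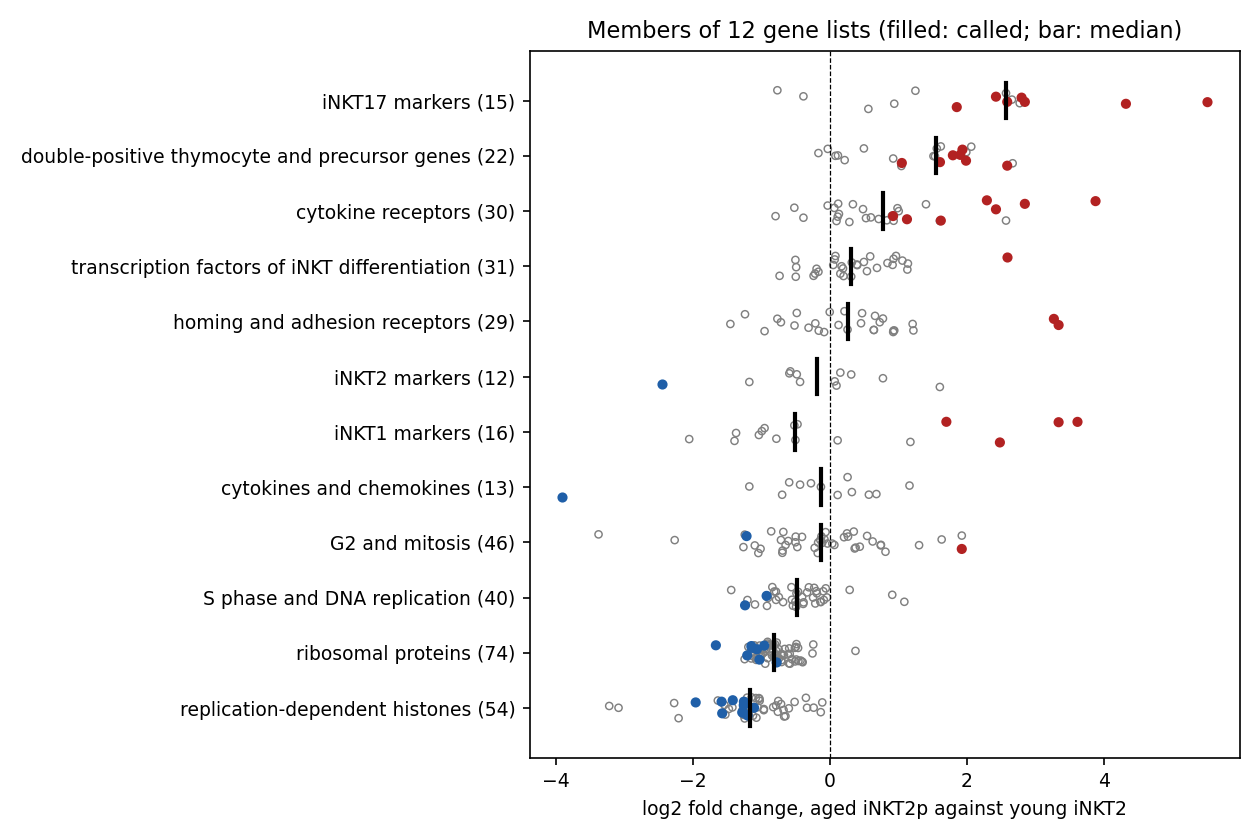
Log2 fold changes of aged iNKT2p against young iNKT2 cells for the members of 12 lists (number of members in parentheses). Each point is a gene, filled where it was called (red higher, blue lower), and bars are medians. The medians of the iNKT17 markers (2.57) and precursor genes (1.55) lie above 0 and those of ribosomal proteins (−0.81) and replication-dependent histones (−1.16) below.

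In further lists few genes were called. Of 9 members of a list of genes that the study names, chosen on these samples and so no independent evidence, Flt4, Pik3ap1 and Igf1r rose and Igfbp4 fell (5 and 2 at an unadjusted p under 0.05 and in edgeR). In 8 lists 0 members were called in either direction by limma. For the T cell receptor complex (16 members) the unadjusted p was under 0.05 for 2 higher and 2 lower genes, and for the early iNKT stage and receptor signalling (19 members) for 3 and 2. It was so for 3 and 0 of 22 immediate early and stress genes, 2 and 2 of 14 inhibitory and costimulatory receptors, 3 and 2 of 34 interferon response genes and 1 and 0 of 16 MHC class I and Ib genes. For Polycomb repressive complex 2 it was 4 and 1 of 11 and for cell cycle inhibitors and senescence 1 and 4 of 18 genes. In edgeR 0 of these were called, apart from 1 interferon response gene that was lower, and DESeq2 called between 0 and 2 in each list and direction. Their medians lay between −0.39 and 0.43. Cd3e, of the receptor complex, was at 4452 and 5988 against 5862 and 6949.8.

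The direction of the change went with the length of the transcripts. Lengths were found for 96.4% of the members. The median length was 1366 bases over these, 2110.0 over the rises and 759.8 over the falls. Members were split into 5 bins of like size by length. In the bin of the shortest (61 to 740 bases) 29 genes rose and 42 fell, with a median log2 fold change of −0.15, and in the bin of the longest (from 2678 bases) 85 rose and 5 fell, with a median of 0.22. The correlation of log2 length with the change across 10352 genes, which are no independent replicates, was 0.24. Between the young libraries (N0806 minus N0803) it was 0.12 and the median of the longest bin 0.16, whereas between the aged libraries the values were −0.03 and −0.02. The age changes of iNKT17 and iNKT1 cells had correlations of 0.11 and 0.08. Among groups above, ribosomal proteins, histones and small nucleolar RNAs are short. With the trend of each library on length taken out, an alternative added after the data were seen, 208 of the 242 rises and 65 of the 92 falls were called, and the medians were −0.65 for ribosomal proteins, −0.98 for replication-dependent histones and 1.398 for precursor genes. Of the 6 small RNAs that fell 3 were called. The log2 fold change went from −2.09 to −0.60 for Snord49b, from −2.41 to −0.89 for Snord82, from −2.65 to −1.14 for Snord34 and from −1.36 to −0.26 for Mir6236, and none of these 4 kept the call. Rag1, from 1.79 to 1.41, and Themis, from 1.05 to 0.88, also lost the call.

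**Figure D5:**
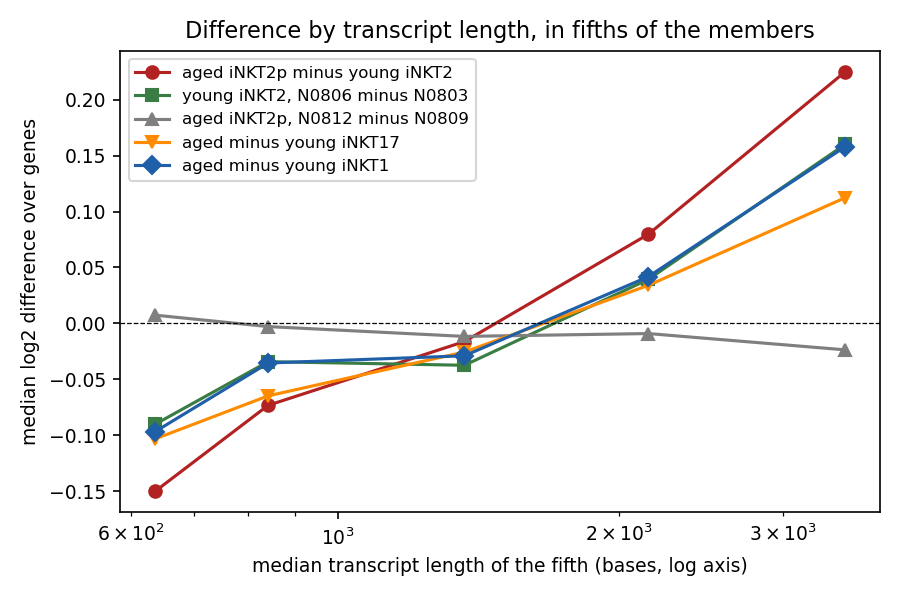
Median log2 difference over the genes of each of 5 bins of members by transcript length (x axis in bases, log scale). Aged minus young iNKT2 cells (red) goes from −0.15 to 0.22, the young libraries N0806 minus N0803 (green) from −0.09 to 0.16, the age changes of iNKT17 (orange) and iNKT1 cells (blue) from −0.10 to 0.11 and to 0.16, and the aged libraries N0812 minus N0809 (grey) lie between −0.02 and 0.01.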

How the data were processed

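Total RNA of sorted thymic iNKT cells was amplified with a SMARTer Stranded Total RNA-Seq Pico kit (version 2, 11 PCR cycles) and read at 75 bases. The submitters' processing notes name bcl2fastq, Trim Galore 0.4.1, cutadapt 1.9.1, FastQC 0.11.4, STAR 2.5.0c, featureCounts and DESeq2 on mm10. Counting was by strand, with a minimum mapping quality. The authors deposited a signal table of DESeq2-normalized counts, 24421 genes by 13 libraries. All values (100.0%) were whole multiples of 1 read within 0.01, so that reads could be recovered. Its 9 columns of adjusted p-values from the authors' comparisons were not used. Reads in genes per library were between 3590903 and 9107274, and intervals and floors cover counting error only.

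log2(normalized count + 1) was tested with limma 3.58.1 (R 4.3.3, variance trend) on 12 libraries of 6 groups, over 11530 genes with at least 10 in at least 2 libraries, with 6 residual degrees of freedom and Benjamini-Hochberg adjustment over all genes. Fold changes are on this scale and understate those of low genes. The DNase-treated repeat N0814 was left out. Alternatives were other pseudocounts, filters and scalings, edgeR 4.0.16 and DESeq2 1.42.0 on recovered reads, fewer libraries, and an iNKT17 share or a length trend taken out. In simulated data limma recovered 99.5%, edgeR 99.5% and DESeq2 99.0% of 200 genes changed 4-fold among 11108, and 4.33%, 3.40% and 10.0% of their calls were false. The simulation gave all genes the same dispersion, changed only genes above a minimum level and held no outlying library. These shares check the code and do not measure the reliability of the calls in the real libraries. Share genes exceeded both other young subsets by at least 2 (log2) in young iNKT17 cells and had at least 100 in aged ones.

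Members and lists were chosen with earlier results of these data known. Named are the called members of largest rise, fall or level, those of largest rise above the aged iNKT17 mean, the largest called and most abundant members of each list, and genes the study names. Genes outside the rule, among them Gata3, Il13, Rag2 and those called in every fit without 1 library, were chosen after their values were seen. Some genes that the rule names are not reported here. Transcript lengths are from GENCODE, promoters from RefSeq.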

Additional observations from a re-analysis of the deposited data

Results flagged for a closer look

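The age change in iNKT2 cells differed from that in another subset for several of the genes described, by limma's interaction test with Benjamini-Hochberg adjustment over all genes. Values are the log2 change with age in iNKT2 cells minus that in the other subset. Against iNKT17 cells, genes of precursors had the higher change in iNKT2 cells, with 4.50 for Rag1, 6.40 for Rag2, 4.59 for Dntt, 3.22 for Ctsl, 4.26 for Cd8a, 3.38 for Themis and 2.79 for Sox4. The difference was 2.44 for Il23r, 5.16 for Slamf7, which was at 0 or near it in all iNKT17 libraries, and 3.05 for Igfbp4, which fell in both.

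Against iNKT1 cells the precursor genes differed as well, by 4.75 for Rag1, 5.53 for Rag2, 5.51 for Dntt, 4.90 for Ctsl, 4.56 for Cd8a, 4.72 for Cd8b1, 4.06 for Themis, 2.71 for Sox4 and 2.90 for Myb. Genes of the iNKT17 program differed by 5.52 for Flt4, 6.24 for Serpinb1a, 5.19 for Tmem176a, 4.37 for Pde5a, 3.81 for Kcnk1, 4.17 for Dkk3, 2.84 for Il23r, 3.25 for Il1r1, 4.04 for Il2ra and 4.85 for Plxnd1. Klrb1c, an iNKT1 marker, differed by 2.04. Ccdc88a differed by 7.53 and Setbp1 by 2.82. Of genes of dividing cells, Mki67 differed by 3.24, and Stmn1, H2afx and Hist1h1d, which were lower with age in both subsets, by 1.71, 1.88 and 2.59. Igfbp4 differed by 2.69. The small nucleolar RNAs Snord34 and Snord49b had the lower change in iNKT2 cells, with −4.09 and −3.56. The young iNKT1 library N0805, in these comparisons, had Krt8 at 424 and Eif2s3y at 96.2. Without it 208 genes had a higher and 60 a lower change in iNKT2 than in iNKT1 cells, and without N0805, N0806 and N0807 together 460 and 92, against 142 and 5 with all libraries.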

How the results depend on the processing

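No paired analysis was possible because the labels carry no replicate numbers and do not say which libraries came from the same sort. Rises and falls numbered 160 and 51 with no filter, 88 and 23 with no variance trend, 0 and 0 on the 4 iNKT2 libraries in limma, 544 and 262 on the 8 iNKT2 and iNKT17 libraries, 621 and 352 in DESeq2, 508 and 260 in DESeq2 on 4 libraries, and 1480 and 599 without N0805, N0806 and N0807. With the iNKT17 share taken out 131 rose, and with 2 times the share 173 fell. Leaving out 1 library gave 13 to 929 rises and 0 to 475 falls.

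Age changes higher in iNKT2 than in iNKT17 cells numbered 25 with a pseudocount of 5, 26 on 8 libraries, 32 with no trend, 43 in edgeR, 110 in DESeq2, 47 without the 3 libraries, 52 with 2 times the share out and 27 with the DNase repeat (0 to 53 without 1 library). Lower ones numbered 2 on 8 libraries, 2 with no trend, 1 in edgeR, 2 in DESeq2, 4 without the 3 libraries, 2 with the share out and 66 with 2 times the share out (0 to 3 without 1 library). Against iNKT1 cells, 281 were higher in DESeq2 and 460 without the 3 libraries (45 to 392 without 1 library). Lower ones were 14 with a pseudocount of 5, 2 with no filter, 8 with TMM, 12 with no trend, 11 in edgeR, 50 in DESeq2, 92 without the 3 libraries, 9 with the share out and 67 with 2 times the share out (0 to 613 without 1 library).

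With the share taken out, the log2 fold change turned to −1.46 for Stab2, −1.53 for Kcnk1, −0.50 for Il23r, −1.38 for Sdc1 and −2.03 for Pik3ap1. With 2 times the share, it was −1.26 for Serpinb1a, −2.03 for Mtcl1 and Pik3ap1, −1.46 for Stab2, −0.072 for Lrrn2, −2.98 for Tmem176a, −3.13 for Pde5a, −1.53 for Kcnk1, −2.44 for Dkk3, −6.23 for Il23r, −6.27 for Sdc1, −6.37 for Il1r1, −3.87 for Klrb1c, −4.25 for Il2ra, −0.78 for Ifngr1 and −2.36 for Plxnd1. These turns follow from the subtraction itself, and the cause of the other changes was not tested. Of 2204 comparisons of the 76 called named genes with an alternative, 617 lost the call and 21 reversed. The members numbered 11328 at a minimum of 5 and 8808 at 50. With 2 libraries a group, and rises such as Slamf7 resting on 15 and 11 reads, small differences could not be seen.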
